A study of Mus musculus with 21 samples.

Results

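The genes Reln, Hgf, Ecm1, Rgs5, Angptl6, Hand2, Vipr1, Ngfr, Cygb and Gfap, which serve as identity genes of quiescent hepatic stellate cells, were followed in whole livers of wild-type mice. They were taken by symbol from a table of 52636 gene IDs, and 10 of 10 were found and passed the filter on low counts. The study set 8 livers taken after 8 weeks of CDA-HFD and 8 livers taken after 16 weeks of CDA-HFD beside 5 livers of mice that had eaten normal chow for 8 weeks, a point labelled week 0. CDA-HFD is a choline-deficient, L-amino acid-defined, high-fat chow that brings about steatohepatitis and scarring of the mouse liver. No strain, sex or age was given for any group. No liver of a mouse kept on chow for 16 weeks was analysed here, so that at 16 weeks the length of feeding and the age of the mice cannot be told apart.

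Hepatic stellate cells lie between the hepatocytes and the sinusoidal endothelium, where in the healthy liver they store vitamin A and help to keep the matrix in balance. In injury they become contractile, collagen-producing myofibroblasts, a change called activation, and genes typical of the resting cell are used to tell the quiescent from the activated state. The genes followed here span a transcription factor of the stellate lineage, a globin, an intermediate filament protein, secreted growth factors and matrix proteins, receptors and a regulator of G protein signalling. Several of them are also made by other cells, such as pericytes (Rgs5), glia (Gfap, Ngfr), lymphatic endothelium (Reln) and hepatocytes (Angptl6). In RNA from whole liver, fewer cells of a type and less RNA per cell cannot be told apart.

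Library totals ran from 29037525 to 45868842 counts after 8 weeks and from 35254088 to 48901145 counts after 16 weeks of CDA-HFD, against 33522456 to 42586342 counts on chow. Levels are given as CPM, counts scaled to a common library size after TMM normalization. Of 12 general stellate markers, none had 0 counts in a group. That shows only that they were detected, and not which cells made the 10 genes. Lrat, which makes the stored retinyl esters, averaged 25.2 ± 9.68 CPM after 8 weeks and 26.6 ± 10.4 CPM after 16 weeks, against 30.5 ± 7.002 CPM on chow (SD, n = 8, 8 and 5). Replicate 3 of the 8-week group stood apart: 6 squamous epithelium genes summed to 1486 CPM and 6 skeletal muscle genes to 2159 CPM in it, while its mitochondrial share was 0.250%. Mitochondrial genes held 2.22% to 3.18% of counts in the rest of its group and 2.37% to 3.15% after 16 weeks, against 4.23% to 5.34% on chow, so that this share differed between diet and chow without overlap, and its part in the results was not tested. Squamous and muscle genes also summed to 247 and 271 CPM in 8-week replicate 6, and in 16-week replicates 1, 4 and 7 to 68.1 to 219 and 181 to 318 CPM. On chow, squamous genes summed to 0.110 to 0.602 CPM and muscle genes to 0.666 to 10.2 CPM, but to 299 CPM in replicate 5. Of the 10 genes, 8-week replicate 3 held the highest 8-week level for Ecm1, Angptl6 and Hand2 and the lowest for 6 others. Its TMM factor was 0.496, against 0.884 to 1.17 in the rest of the 8-week group, and a low factor raises every CPM of a library. Exocrine pancreas genes summed to 8061 CPM in replicate 4 of that group and to 381 CPM in replicate 5, against 16.9 to 31.5 CPM on chow. Values of the 10 genes that turn on replicate 3, and some of those of the other lists, are also given without it.

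The direction of change differed between the 10 genes. After 8 weeks of CDA-HFD, Cygb, Hand2 and Gfap were called higher than on chow and Vipr1 was called lower, by edgeR's quasi-likelihood test at an adjusted p under 0.05. These were 4 of 10, where 51.3% of the 17104 genes tested were called, 30.8% higher and 20.5% lower. After 16 weeks, Cygb, Hand2, Gfap and Ngfr were called higher and Vipr1 and Angptl6 lower, 6 of 10 beside 51.9% of all genes (29.4% higher, 22.5% lower). Between the diet groups, Cygb, Rgs5 and Hgf were higher and Ecm1 and Angptl6 lower at 16 than at 8 weeks, 5 of 10 beside 21.6% of all genes (10.6% higher, 11% lower). The shares in both comparisons with chow are near those of all genes. At 8 weeks the livers of the diet and of chow did not overlap for 3 of the 10, beside 30.1% of all genes, of which 2 lay above chow (15.3% of all genes) and 1 below (14.8%). At 16 weeks they did not overlap for 4 of the 10, beside 50.5%, with 2 above (27.2%) and 2 below (23.3%). Between the diet groups this held for 1 of the 10, beside 3.09%, with 0 above (2.58%) and 1 below (0.509%). With 8-week replicate 3 left out, 5, 9 and 6 of the 10 were called, beside 57.2%, 66.4% and 27.3% of all genes. Under scaling by total counts alone, which raised the median change of all genes, 5 of the 10 were higher and 0 lower at 8 weeks, 7 higher and 0 lower at 16 weeks, and 4 higher and 1 lower between the diet groups. Of all genes, 35.2%, 49.4% and 26% were then higher and 9.76%, 5.76% and 1.43% lower. The median log2 change of the 10 genes was 0.49 after 8 weeks and 0.55 after 16 weeks of the diet relative to chow, and 0.29 between the diet groups. Over all genes tested these medians were 0.16, 0.03 and 0.00. With 8-week replicate 3 left out, the medians of the 10 genes were 0.12, 0.55 and 0.23, beside 0.07, 0.02 and 0.00 over all genes. The livers' labels do not say how replicates were raised or handled, so the p-values measure only the spread between these samples. Both comparisons with chow use the same 5 chow livers.

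**Figure D1:**
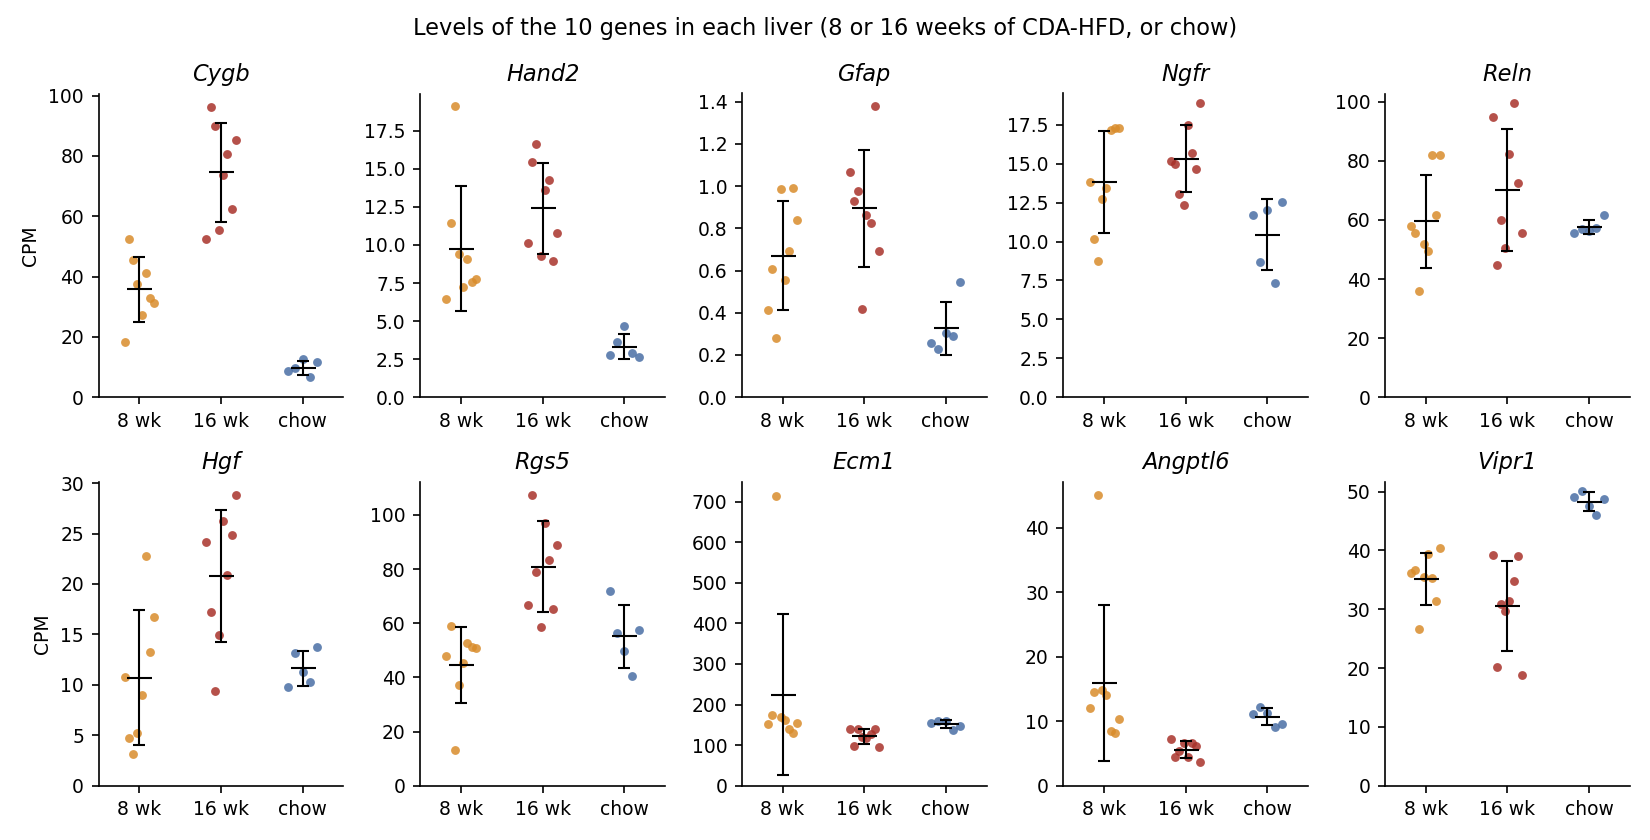
CPM of each gene in every liver (points) after 8 and 16 weeks of CDA-HFD and on chow, with the mean and SD of each group (bars); each panel has its own axis from 0. In these TMM-scaled values, Cygb and Hand2 lie above the chow livers and Vipr1 below them in every diet liver, while 8-week replicate 3 is the lone high point for Ecm1 (714 CPM) and Angptl6 (44.99 CPM).

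**Figure D2:**
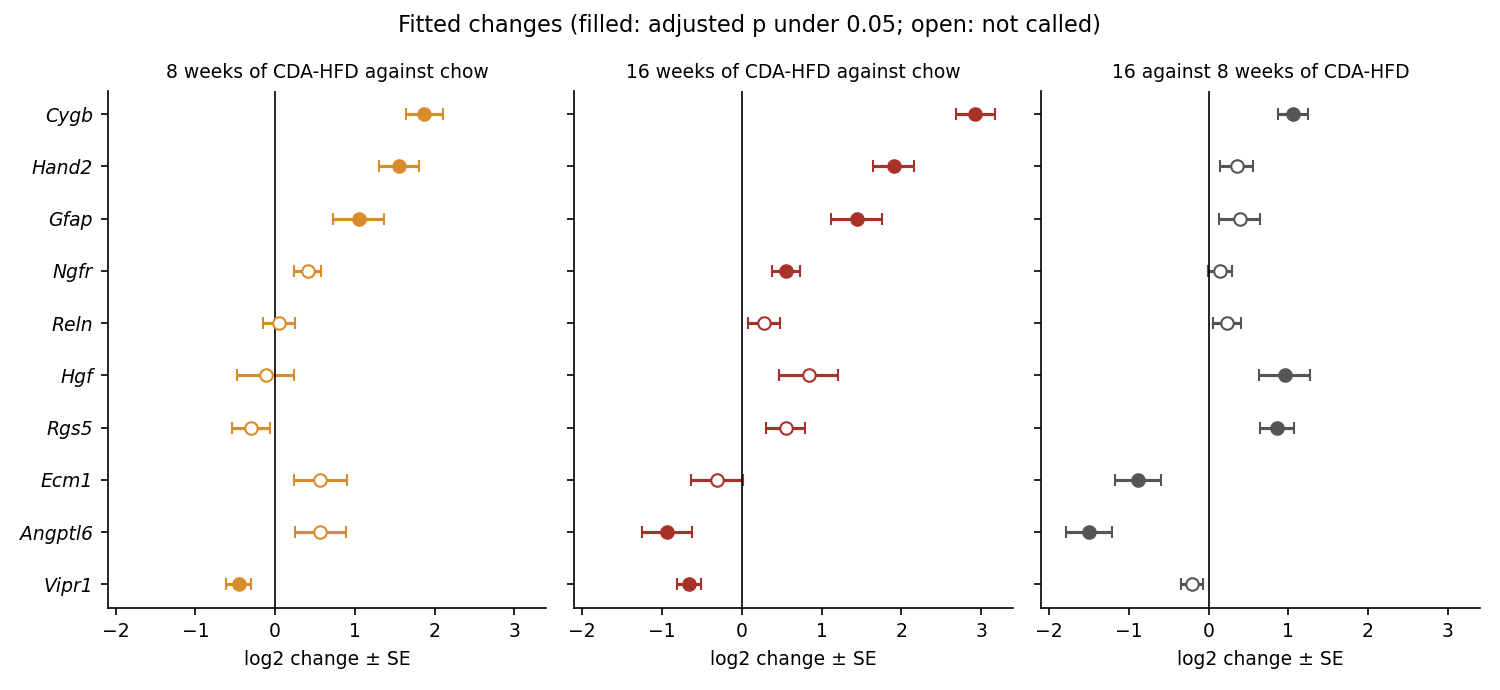
Log2 change with its standard error for the 10 genes in the 3 comparisons, the first-named group over the second; filled points were called and open points were not. The values at 16 weeks against chow run from 2.93 for Cygb to -0.93 for Angptl6.

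Hand2 encodes a basic helix-loop-helix factor that marks the stellate lineage in fish and mice, and factors of this class bind E-boxes, CANNTG, a motif that reads the same on both strands. The 250 bases before the RefSeq start (GRCm38.p6) are shown for Hand2, called higher in both comparisons with chow, for Vipr1, called lower in both, and for Ecm1, the gene with the highest level per length, with each E-box in capitals. The window of Hand2 is chr8:57320733-57320982 on the plus strand, that of Vipr1 is chr9:121642466-121642715 on the plus strand and that of Ecm1 is chr3:95739570-95739819 on the minus strand.
Hand2: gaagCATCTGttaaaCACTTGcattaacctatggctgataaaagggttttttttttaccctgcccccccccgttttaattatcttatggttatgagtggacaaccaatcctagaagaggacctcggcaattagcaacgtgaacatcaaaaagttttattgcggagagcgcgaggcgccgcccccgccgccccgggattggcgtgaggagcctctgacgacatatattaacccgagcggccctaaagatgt
Vipr1: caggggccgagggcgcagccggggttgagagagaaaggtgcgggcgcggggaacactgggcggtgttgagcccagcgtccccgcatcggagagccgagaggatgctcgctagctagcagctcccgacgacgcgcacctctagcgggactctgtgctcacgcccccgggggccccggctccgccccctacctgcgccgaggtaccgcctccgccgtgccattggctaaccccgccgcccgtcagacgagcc
Ecm1: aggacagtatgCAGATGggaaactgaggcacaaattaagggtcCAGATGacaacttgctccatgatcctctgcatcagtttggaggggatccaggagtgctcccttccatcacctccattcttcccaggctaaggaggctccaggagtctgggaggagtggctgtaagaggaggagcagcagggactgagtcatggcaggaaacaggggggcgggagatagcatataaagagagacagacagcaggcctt
The Hand2 window held 2 E-boxes, beginning 246 and 235 bases before the start, the Ecm1 window held 2 at 239 and 207 bases, and the Vipr1 window held 0. RefSeq gave 10 promoters for 9 of the 10 genes, with 2 starts for Hgf, and Cygb was not among them. An E-box was found in 6 of these 10 windows, beside 66.2% of 32851 mouse promoters of the same length. The share of G and C was 49.2% in the Hand2 window, 72.8% in the Vipr1 window and 54.0% in the Ecm1 window, against a median of 52.4% over all promoters. These matches describe the letters of the windows only.

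Hand2 (ENSMUSG00000038193, chr8:57320983-57324633, plus strand) was at 6.43 CPM in the lowest, 8.41 in the median and 19.1 in the highest liver after 8 weeks and at 8.92, 12.2 and 16.7 CPM after 16 weeks, against 2.76, 3.61, 4.65, 2.90 and 2.66 CPM in the 5 chow livers. Each diet liver stood above each chow liver, and the highest value was that of 8-week replicate 3, the library with the TMM factor of 0.496. Hand2 changed by 1.55 on the log2 scale (SE 0.251, adjusted p = 4.26e-05) at 8 weeks and 1.90 (SE 0.254, adjusted p = 2.39e-06) at 16 weeks against chow, a 2.92-fold and a 3.74-fold higher level. Leaving out any 1 library kept both changes called, between 1.33 and 1.70 at 8 weeks and between 1.83 and 2.05 at 16 weeks. Between 16 and 8 weeks Hand2 differed by 0.35 (95% interval -0.07 to 0.78, adjusted p = 0.217), and by 0.57 (adjusted p = 0.0135) without 8-week replicate 3. Its exons overlap those of Hand2os1, a noncoding transcript on the opposite strand, which averaged 4.39 ± 1.58 CPM after 8 weeks and 6.81 ± 0.951 CPM after 16 weeks, against 1.17 ± 0.323 CPM on chow (SD, n = 8, 8 and 5), with log2 changes of 1.90 (adjusted p = 2.08e-06) and 2.54 (adjusted p = 3.18e-08). The kit marked the strand, but whether the counting used it is not given in the sources used here, so that reads of this pair cannot be told apart.

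Among 12 other transcription factors linked to stellate cells, 4 were called higher and 0 lower at 8 weeks, and 8 higher and 1 lower at 16 weeks against chow. Leaving out 8-week replicate 3 gave 5 and 2, and 10 and 2, and total counts alone gave 4 and 0, and 10 and 0. Tcf21, a helix-loop-helix factor of fibroblast lineages, led both comparisons with log2 changes of 1.49 (adjusted p = 6.06e-05) and 2.64 (adjusted p = 4.96e-08). Its means were 11.03 ± 4.37 CPM after 8 weeks and 24.6 ± 4.56 CPM after 16 weeks, against 3.94 ± 0.797 CPM on chow (SD, n = 8, 8 and 5). Irf1, an interferon-induced factor, rose by 1.02 at 8 weeks (adjusted p = 0.00229), and Foxf1, a forkhead factor of gut and liver mesenchyme, by 1.48 at 16 weeks (adjusted p = 0.00191). At 16 against 8 weeks 3 were higher and 0 lower, with Tcf21 at 1.15 (adjusted p = 0.000761) and Mef2c, a MADS-box factor, at 0.76 (adjusted p = 0.0292).

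The largest changes of the 10 against chow were those of Cygb. It encodes cytoglobin, a globin that in the liver is found in stellate cells and binds oxygen and nitric oxide. Cygb (ENSMUSG00000020810, chr11:116645595-116654313, minus strand) was at 18.5 CPM in the lowest, 35.2 in the median and 52.6 in the highest liver after 8 weeks and at 52.5, 77.2 and 96.2 CPM after 16 weeks, against 8.64, 9.61, 12.5, 6.69 and 11.5 CPM in the chow livers. Both diet groups lay wholly above chow, and the diet groups met at a single point, the highest 8-week liver just above the lowest 16-week liver. The level was 3.65-fold that of chow at 8 weeks (log2 change 1.87, SE 0.231, adjusted p = 1.67e-06) and 7.60-fold at 16 weeks (2.93, SE 0.244, adjusted p = 5.13e-09). At 16 against 8 weeks it was 2.08-fold higher (1.06, SE 0.189, adjusted p = 0.000746), and in fits without 1 library this difference lay between 0.96 and 1.16 and stayed called. Prcd, a gene on the opposite strand whose exons overlap, was at or under 0.834 CPM in each library.

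Other globins and cytoglobin reductases were not called higher. The 4 tested had a median change of -0.01 at 8 weeks, or of -0.38 with 0 higher and 1 lower without 8-week replicate 3. At 16 weeks against chow 0 were higher and 2 lower. Cyb5r3 and Cyb5a, which pass electrons to cytoglobin, changed by -0.74 (adjusted p = 0.0144) and -0.66 (adjusted p = 0.0274). Scaling by total counts alone left 0 of these 4 called at 16 weeks, with a median of 0.29 in place of -0.23.

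Gfap encodes glial fibrillary acidic protein, an intermediate filament of astrocytes that marks stellate cells in rodents. It was the least abundant of the 10, with 4 to 77 counts in a library. Gfap (ENSMUSG00000020932, chr11:102887336-102900912, minus strand) was at 0.278 CPM in the lowest, 0.651 in the median and 0.991 in the highest liver after 8 weeks and at 0.420, 0.896 and 1.38 CPM after 16 weeks, against 0.257, 0.229, 0.304, 0.290 and 0.548 CPM on chow. The groups overlapped: chow replicate 5 stood above the other chow livers and above 2 livers of the 8-week group and 1 of the 16-week group. Gfap changed by 1.05 on the log2 scale (SE 0.320, adjusted p = 0.0104) at 8 weeks and 1.44 (SE 0.320, adjusted p = 0.000709) at 16 weeks against chow, and 0.39 (95% interval -0.14 to 0.93, adjusted p = 0.280) at 16 against 8 weeks. Of 5 related filament genes, 3 were called higher and 0 lower in each comparison with chow, and without 8-week replicate 3 the counts were 2 and 5 higher. Vim, the vimentin of mesenchymal cells, rose by 2.99 at 8 weeks (adjusted p = 1.42e-07) and 3.34 at 16 weeks (adjusted p = 2.05e-08), and Prph, peripherin, a filament of peripheral neurons, by 1.87 at 16 weeks (adjusted p = 0.00384). Des, the desmin of muscle and stellate cells, was called at 8 weeks (2.76, adjusted p = 0.0255). Without 8-week replicate 3 it was not (0.67, adjusted p = 0.280). Its 8-week median was 19.3 CPM and its highest liver 573 CPM, against a chow median of 5.70 CPM.

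Markers of Schwann cells and glia were set beside Gfap. Of 7 such genes 5 were tested, and 2 were called higher and 0 lower in each comparison with chow: Mag and Mbp, proteins of myelin, which rose by 2.43 and 1.65 at 8 weeks (adjusted p = 3.41e-07 and 2.70e-05) and by 2.71 and 2.74 at 16 weeks (adjusted p = 4.02e-08 and 4.27e-08). The 7 genes summed to 6.19 to 13.5 CPM after 8 weeks and 15.0 to 20.2 CPM after 16 weeks, against 3.59 to 5.67 CPM on chow, and none was at 0 in a group. Sox10, the lineage factor of Schwann cells, averaged 0.0745 CPM after 8 weeks, where 5 of 8 livers were at 0 counts, and 0.127 CPM after 16 weeks, against 0.0585 CPM on chow. The part of such cells in the Gfap change was not tested.

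The receptors in the set, Ngfr and Vipr1, moved in opposite directions. Ngfr encodes p75, the low-affinity receptor of the neurotrophins, found on stellate cells and on nerves and their glia. Ngfr (ENSMUSG00000000120, chr11:95568818-95587735, minus strand) was at 8.76 CPM in the lowest, 13.6 in the median and 17.3 in the highest liver after 8 weeks and at 12.4, 15.1 and 18.9 CPM after 16 weeks, against 11.7, 8.66, 12.01, 7.33 and 12.5 CPM on chow. The 16-week livers overlapped the chow livers by a narrow margin, the lowest of them just under the highest on chow, and the 8-week livers overlapped them more widely. The Ngfr change was 0.41 on the log2 scale (95% interval 0.05 to 0.77, adjusted p = 0.0527) at 8 weeks, which was not called, and 0.55 (SE 0.173, adjusted p = 0.0106) at 16 weeks. Without 8-week replicate 3 it was 0.47 at 8 weeks (adjusted p = 0.0111). The diet groups differed by 0.14 (95% interval -0.17 to 0.45, adjusted p = 0.514).

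Of 8 other neurotrophin genes, 4 were called higher and 3 lower at 8 weeks, and 5 higher and 3 lower at 16 weeks against chow (5 and 1 at 16 weeks with total counts alone). Ntrk2, the receptor of brain-derived neurotrophic factor, averaged 8.32 ± 4.50 CPM after 8 weeks and 38.5 ± 10.6 CPM after 16 weeks, against 2.25 ± 2.43 CPM on chow (SD, n = 8, 8 and 5), with log2 changes of 1.89 (adjusted p = 0.00505) and 4.11 (adjusted p = 4.27e-06). Ntf5, the ligand neurotrophin 4, rose by 2.997 at 16 weeks (adjusted p = 0.000422). At 16 against 8 weeks 4 of the 8 were higher and 0 lower, led by Ntrk2 (2.22, adjusted p = 0.00140) and Ntrk3, the receptor of neurotrophin 3 (1.87, adjusted p = 0.000974).

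Vipr1 encodes VPAC1, a G protein-coupled receptor of vasoactive intestinal peptide and of PACAP. Vipr1 (ENSMUSG00000032528, chr9:121642716-121672954, plus strand) was at 26.6 CPM in the lowest, 35.8 in the median and 40.3 in the highest liver after 8 weeks and at 18.8, 31.1 and 39.3 CPM after 16 weeks, against 49.1, 50.1, 47.6, 46.1 and 48.8 CPM on chow. In these TMM-scaled values each diet liver stood below each chow liver, and the chow livers differed little among themselves, with an SD of 3.21% of their mean. As shares of raw counts the livers overlapped. In 16-week replicate 1, Vipr1 held 2207 of 48901145 counts, a larger share than the 1590 of 42586342 in chow replicate 4. The level was 1.37-fold lower than on chow at 8 weeks (log2 change -0.46, SE 0.154, adjusted p = 0.0183) and 1.58-fold lower at 16 weeks (-0.66, SE 0.153, adjusted p = 0.00104), and the diet groups differed by -0.21 (95% interval -0.49 to 0.08, adjusted p = 0.284). Scaling by total counts alone in place of TMM raised the median log2 change of all genes by 0.12 at 8 weeks, 0.53 at 16 weeks and 0.38 between the diet groups. It left Vipr1 at -0.30 (adjusted p = 0.242) and -0.14 (adjusted p = 0.575). Relative to the median of all genes, the Vipr1 change was -0.61 with TMM and -0.58 with total counts at 8 weeks, and -0.69 and -0.70 at 16 weeks. Of the 4 other ligand and receptor genes of the VIP system, only Adcyap1r1, the PACAP receptor, passed the filter, and it changed by 0.26 at 8 weeks, which was not called, and by 0.62 at 16 weeks (adjusted p = 0.0281).

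Among the secreted factors, Hgf encodes hepatocyte growth factor, made in the liver by stellate and endothelial cells and read by the receptor Met on hepatocytes. Hgf (ENSMUSG00000028864, chr5:16553495-16620152, plus strand) was at 3.13 CPM in the lowest, 9.90 in the median and 22.8 in the highest liver after 8 weeks and at 9.41, 22.5 and 28.8 CPM after 16 weeks, against 9.82, 13.2, 11.2, 10.3 and 13.7 CPM on chow. The 8-week livers spread on both sides of the chow livers, and of the 16-week livers 7 of 8 lay above the chow livers and 1 below. Hgf changed by -0.12 on the log2 scale (95% interval -0.86 to 0.63, adjusted p = 0.797) at 8 weeks and 0.84 (95% interval 0.07 to 1.60, adjusted p = 0.0633) at 16 weeks, neither called, and without 8-week replicate 3 it was 0.00 (adjusted p = 0.994) and 0.83 (adjusted p = 0.0254). At 16 against 8 weeks Hgf was 1.94-fold higher (0.95, SE 0.317, adjusted p = 0.0370), a call lost in fits without 8-week replicate 2, 4 or 5 or without 16-week replicate 1, 5, 6, 7 or 8 (0.84 to 0.95, adjusted p up to 0.0782). Without 8-week replicates 3, 4 and 5 together the difference was 0.62 (adjusted p = 0.154). The call was also lost with no filter on low counts (0.97, adjusted p = 0.0527) and in the 2-group fit (0.96, adjusted p = 0.0707). Gm43489, whose exons overlap on the same strand, was at or under 1.59 CPM in each library.

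Around Hgf, 7 genes of its receptor, activators and inhibitors were tested, of which 5 were called higher and 1 lower at 8 weeks, and 3 higher and 3 lower at 16 weeks against chow. Without 8-week replicate 3 the counts were 4 and 1, and 4 and 3. St14, matriptase, a protease that activates pro-HGF, averaged 3.90 ± 3.56 CPM after 8 weeks and 16.9 ± 6.65 CPM after 16 weeks, against 0.705 ± 0.187 CPM on chow (SD, n = 8, 8 and 5), with log2 changes of 2.43 (adjusted p = 0.000915) and 4.57 (adjusted p = 1.25e-06). Plau, urokinase, rose by 2.84 at 8 weeks (adjusted p = 2.74e-06), and Spint1, an inhibitor of the HGF activator, by 3.996 at 16 weeks (adjusted p = 1.81e-07). At 16 against 8 weeks 2 were higher and 2 lower. Spint1 and St14 were higher by 2.23 (adjusted p = 0.000124) and 2.14 (adjusted p = 0.00147), while Hgfac, the HGF activator, and Hpn, the protease hepsin, both chosen here after their values were seen, changed by -0.95 (adjusted p = 0.000588) and -0.61 (adjusted p = 0.0112). Met, chosen here after its values were seen, averaged 58.6 ± 25.5 CPM after 8 weeks and 59.7 ± 12.4 CPM after 16 weeks, against 130 ± 4.49 CPM on chow, with log2 changes of -1.15 (adjusted p = 0.00280) and -1.13 (adjusted p = 0.00268). With total counts alone, 4 of the 7 were higher and 0 lower at 16 weeks.

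Angptl6 encodes angiopoietin-like 6, also called angiopoietin-related growth factor, a secreted protein made mainly in the liver. Angptl6 (ENSMUSG00000038742, chr9:20873808-20879727, minus strand) was at 8.18 CPM in the lowest, 13.0 in the median and 44.99 in the highest liver after 8 weeks and at 3.64, 5.83 and 7.22 CPM after 16 weeks, against 11.2, 12.2, 11.3, 9.07 and 9.59 CPM on chow. The 16-week livers lay wholly below both other groups, the one gene of the 10 whose diet groups did not overlap, where 3.09% of all genes had diet groups that did not. The Angptl6 change was 0.57 on the log2 scale (95% interval -0.10 to 1.24, adjusted p = 0.144) at 8 weeks, and -0.93 (SE 0.312, adjusted p = 0.0160) at 16 weeks against chow, a 1.91-fold lower level. At 16 against 8 weeks it was 2.83-fold lower (-1.499, SE 0.284, adjusted p = 0.00120). Without 8-week replicate 3 these values were 0.13 (adjusted p = 0.566), -0.94 (adjusted p = 6.77e-05) and -1.06 (adjusted p = 9.77e-05). With total counts alone the change at 16 weeks was -0.42 (adjusted p = 0.0763), which is -0.97 relative to the median of all genes. Its exons overlap those of A230050P20Rik on the opposite strand, which averaged 106 ± 86.0 CPM after 8 weeks and 53.8 ± 8.70 CPM after 16 weeks, against 41.0 ± 4.30 CPM on chow (SD, n = 8, 8 and 5). That neighbour changed by 1.37 at 8 weeks (adjusted p = 0.00164), by 0.39 at 16 weeks (adjusted p = 0.309) and by -0.98 at 16 against 8 weeks (adjusted p = 0.0163), and reads of the 2 genes cannot be told apart.

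In the rest of the angiopoietin-like family, 6 genes were tested, and 2 were higher and 1 lower at 8 weeks and 2 higher and 2 lower at 16 weeks against chow. At 8 weeks the counts were 1 and 2 without 8-week replicate 3 and 2 and 2 with total counts alone. Angptl2, a secreted factor of inflamed tissue, averaged 28.8 ± 8.68 CPM after 8 weeks and 53.4 ± 6.72 CPM after 16 weeks, against 20.04 ± 2.56 CPM on chow (SD, n = 8, 8 and 5), with log2 changes of 0.53 (adjusted p = 0.0160) and 1.41 (adjusted p = 1.18e-06). Angptl8, a regulator of lipoprotein lipase, rose by 1.44 at 8 weeks (adjusted p = 0.0470), where its highest liver held 267 CPM and its median was 28.4 CPM, against a chow median of 17.5 CPM. It changed by -0.20 at 16 weeks against chow (adjusted p = 0.797), which was not called, and by -1.64 at 16 against 8 weeks (adjusted p = 0.0267). Neither of its calls held without 8-week replicate 3, with 0.27 at 8 weeks (adjusted p = 0.338) and -0.46 at 16 against 8 weeks (adjusted p = 0.0944). Angptl1, at or under 0.318 CPM on average in each group, rose by 1.49 at 16 weeks (adjusted p = 0.00615).

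Reln and Ecm1 encode matrix glycoproteins. Reln, reelin, guides neuron migration in the brain and is made in the liver by stellate cells. Reln (ENSMUSG00000042453, chr5:21884454-22344702, minus strand) was at 36.1 CPM in the lowest, 56.7 in the median and 82.1 in the highest liver after 8 weeks and at 44.7, 66.2 and 99.6 CPM after 16 weeks, against 55.7, 57.1, 56.2, 57.2 and 61.6 CPM on chow. The diet livers spread on both sides of the closely grouped chow livers, with an SD of 26.4% of the mean after 8 weeks and 29.5% after 16 weeks, against 4.10% on chow. The log2 change was 0.05 (95% interval -0.36 to 0.47, adjusted p = 0.843) at 8 weeks and 0.28 (95% interval -0.13 to 0.70, adjusted p = 0.253) at 16 weeks, and 0.23 (95% interval -0.13 to 0.60, adjusted p = 0.354) between the diet groups, none called. Of its receptor and adaptor genes Lrp8, Vldlr and Dab1, 1 was called higher at 8 weeks and 2 at 16 weeks against chow, and 0 lower. Lrp8, apolipoprotein E receptor 2, averaged 0.697 ± 0.268 CPM after 8 weeks and 0.953 ± 0.154 CPM after 16 weeks, against 0.131 ± 0.110 CPM on chow (SD, n = 8, 8 and 5), with log2 changes of 2.40 (adjusted p = 4.48e-05) and 2.85 (adjusted p = 3.33e-06). Dab1, the adaptor that both receptors bind, rose by 2.35 at 16 weeks against chow (adjusted p = 6.99e-05) and by 2.20 at 16 against 8 weeks (adjusted p = 0.000238).

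Ecm1, extracellular matrix protein 1, is a secreted glycoprotein that in the mouse liver holds latent TGF-beta inactive. Ecm1 (ENSMUSG00000028108, chr3:95734147-95739569, minus strand; promoter printed above) was at 129 CPM in the lowest, 158 in the median and 714 in the highest liver after 8 weeks and at 94.8, 124 and 140 CPM after 16 weeks, against 156, 159, 159, 137 and 147 CPM on chow. All groups overlapped, and the 714 CPM of 8-week replicate 3 lay far above the other 20 livers. The log2 change was 0.57 (95% interval -0.12 to 1.25, adjusted p = 0.154) at 8 weeks and -0.31 (95% interval -0.98 to 0.36, adjusted p = 0.443) at 16 weeks, neither called, and at 16 against 8 weeks Ecm1 was 1.84-fold lower (-0.88, SE 0.287, adjusted p = 0.0343). Without 8-week replicate 3 these values were 0.02 (adjusted p = 0.897), -0.32 (adjusted p = 0.00797) and -0.34 (adjusted p = 0.00992), so that the last call held at a smaller size. That call was lost in fits without 16-week replicate 2, 5, 6 or 8 (-0.84 to -0.89, adjusted p up to 0.0702) and without 8-week replicates 3, 4 and 5 together (-0.29, adjusted p = 0.0610). It was also lost with total counts alone (-0.26, adjusted p = 0.218), with no filter on low counts (-0.80, adjusted p = 0.0514) and in the 2-group fit (-0.88, adjusted p = 0.0763). Of 4 genes of its binding partners and of latent TGF-beta, 2 were higher at 8 weeks and 1 at 16 weeks against chow, and 0 lower, and without 8-week replicate 3 the count at 16 weeks was 3. Tgfb1, the growth factor itself, averaged 37.8 ± 8.69 CPM after 8 weeks and 37.7 ± 6.10 CPM after 16 weeks, against 10.5 ± 1.61 CPM on chow (SD, n = 8, 8 and 5), with log2 changes of 1.85 (adjusted p = 3.51e-08) and 1.85 (adjusted p = 1.46e-08), and Mmp9, a gelatinase, rose by 0.93 at 8 weeks (adjusted p = 0.0219), or by 0.60 without 8-week replicate 3 (adjusted p = 0.0368).

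Rgs5 encodes a GTPase-activating protein that ends signalling by G proteins, and it is abundant in pericytes as well as in stellate cells. Rgs5 (ENSMUSG00000026678, chr1:169655501-169695813, plus strand) was at 13.3 CPM in the lowest, 49.4 in the median and 58.8 in the highest liver after 8 weeks and at 58.6, 81.2 and 107 CPM after 16 weeks, against 71.9, 56.4, 49.6, 40.5 and 57.5 CPM on chow. The lowest value was that of 8-week replicate 3, and the diet groups met at their edges only. The log2 change was -0.30 (95% interval -0.80 to 0.19, adjusted p = 0.288) at 8 weeks and 0.55 (95% interval 0.05 to 1.06, adjusted p = 0.0633) at 16 weeks against chow, neither called, and 0.86 (SE 0.211, adjusted p = 0.00815) at 16 against 8 weeks, a 1.81-fold higher level. Without 8-week replicate 3 the value at 16 weeks against chow was 0.55 (adjusted p = 0.00306) and the difference between the diet groups 0.73 (adjusted p = 0.000694). Of 8 other members of its R4 family 6 were tested, with 4 called higher and 1 lower in each comparison with chow (0 lower with total counts alone). Rgs16 rose by 3.35 at 8 weeks (adjusted p = 7.04e-05) and 3.19 at 16 weeks (adjusted p = 7.09e-05), Rgs2 by 1.98 at 8 weeks (adjusted p = 3.72e-08) and Rgs18, a regulator of blood cells, by 2.51 at 16 weeks (adjusted p = 5.98e-06). Of 8 vascular smooth muscle and pericyte markers, 2 were higher and 0 lower in each comparison with chow (3 and 5 higher without 8-week replicate 3), and their median difference at 16 against 8 weeks was 0.06, or 0.28 with 1 higher without that library and 0.52 with total counts alone. The 8 genes summed to 54.4 to 104 CPM after 16 weeks and 48.3 to 133 CPM after 8 weeks, against 49.8 to 70.6 CPM on chow. Without 8-week replicate 3 the highest 8-week sum of these genes was 90.2 CPM. Their part in the Rgs5 difference was not tested.

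Divided by exon length, the order of the levels changed with the diet. On this scale of CPM per kb of exon, Ecm1 was the highest of the 10 in each group, with 89.0 after 8 weeks and 48.3 after 16 weeks, against 60.1 on chow, and Gfap the lowest, with 0.159 and 0.212, against 0.0772. Cygb ranked 2 in both diet groups, at 15.4 after 8 weeks and 32.0 after 16 weeks, against rank 5 on chow at 4.20, and after 16 weeks its livers overlapped those of Ecm1. Angptl6 ranked 3 after 8 weeks at 10.05 and 7 after 16 weeks at 3.53, against rank 4 on chow at 6.75. With replicate 3 left out, the 8-week means were 61.3 for Ecm1, 14.8 for Cygb, 10.8 for Rgs5 and 7.42 for Angptl6, which then ranked 4 as on chow. On chow the libraries of Cygb and Ngfr, of Ngfr and Reln and of Hgf and Hand2 overlapped, and the other neighbours in the order did not. After 8 weeks the libraries, replicate 3 included, overlapped for each pair of neighbours but Ecm1 with Cygb and Hgf with Gfap, and after 16 weeks for each but Rgs5 with Hand2 and Hgf with Gfap.

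**Figure D3:**
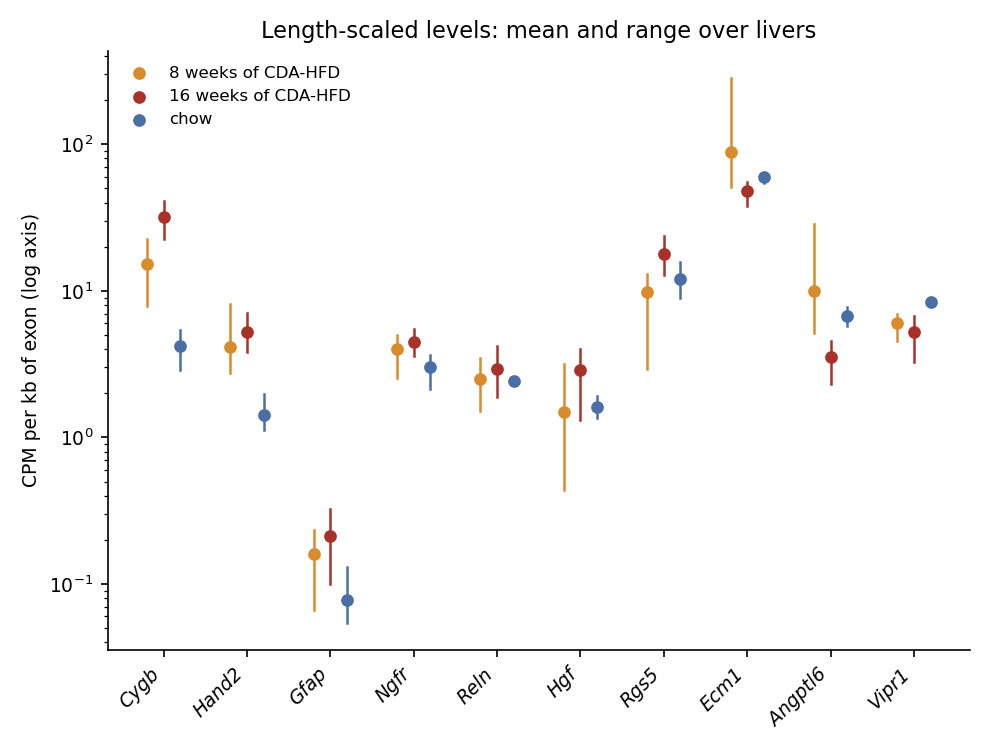
Level per exon length of the 10 genes (CPM per kb, log axis) after 8 and 16 weeks of CDA-HFD and on chow; points are group means and lines run from the lowest to the highest liver. Cygb stands at 15.4 and 32.0 CPM per kb in the diet groups, against 4.20 on chow, and Ecm1 is highest in each group.

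Within groups the 10 genes did not vary as one. Deviations of log2 CPM from the group mean were compared over the 20 livers other than 8-week replicate 3, as a description: each pair of values comes from the same library and shares its depth and scaling. Spearman's rho was 0.75 for Hand2 with Cygb, 0.74 for Hgf with Ngfr, 0.65 for Reln with Hgf, 0.82 for Ecm1 with Angptl6 and 0.72 for Ecm1 with Vipr1. It was 0.49 for Reln with Vipr1 and -0.11 for Hgf with Cygb, and lowest for Angptl6 with Ngfr (-0.56) and Hgf with Angptl6 (-0.51). With all 21 libraries the value for Ecm1 with Vipr1 was 0.38.

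**Figure D4:**
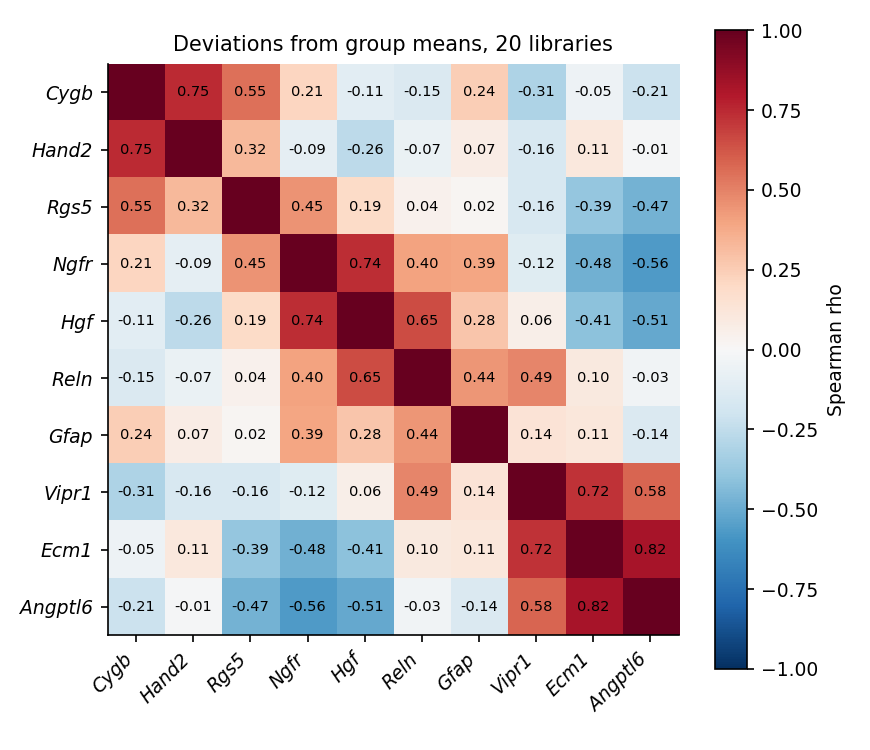
Spearman's rho between the 10 genes over 20 livers (8-week replicate 3 left out), on deviations of log2 CPM from the mean of each group; red is positive and blue negative. The values are 0.40 to 0.74 among Hgf, Ngfr and Reln and 0.58 to 0.82 among Vipr1, Ecm1 and Angptl6. Across these sets they run from -0.56 (Angptl6 with Ngfr) to 0.49 (Reln with Vipr1).

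Among all other genes tested, those whose deviations were most like each of the 10 were taken by the highest rho over 21 libraries. Taking the highest of so many values by itself favours high ones. Without 8-week replicate 3 the rho of the same pairs ran from 0.66 (Gfap with Pcdhb8) to 0.96, with 0.77 for Ecm1 with Metap1d. The values below are those of all 21 libraries. Cygb was closest to Sphk1, a sphingosine kinase, at 0.96 and to Fads3, of the fatty acid desaturase family, at 0.95, and Hand2 to Arrdc1 at 0.93 and Kif12, a kinesin, at 0.90. For Hgf the closest were Virma, of the RNA adenosine methylation complex, and Ralgapa1, of a Ral GTPase-activating complex, at 0.97 and 0.96. Reln lay nearest to the matrix proteins Abi3bp at 0.89 and Papln at 0.88. The nearest to Ngfr were Map3k1, a kinase, at 0.93 and Sntb2, a syntrophin, at 0.92, and those nearest to Rgs5 were Map2, a microtubule-associated protein, at 0.91 and Rpgr, a protein of the cilium, at 0.90. Ecm1 was matched by Cebpe, a C/EBP factor, and Metap1d, a mitochondrial aminopeptidase, both at 0.91, and Angptl6 by Sirt3, a mitochondrial deacetylase, at 0.89 and Cutal at 0.88. The values were lower for Vipr1, with Rnf43, a ubiquitin ligase that removes Wnt receptors, at 0.83 and Lrit1 at 0.77, and for the sparse Gfap, with Pcdhb8 at 0.74 and Slamf1 at 0.72.

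Other stellate genes were set beside the 10. All 9 genes of activated stellate cells and myofibroblasts were called higher at both times against chow, with medians of 2.89 at 8 weeks and 3.45 at 16 weeks, where the 10 had 0.49 and 0.55 and the 12 transcription factors 0.19 and 0.82. Col1a1, the main fibrillar collagen, averaged 190 ± 65.5 CPM after 8 weeks and 229 ± 63.8 CPM after 16 weeks, against 12.1 ± 3.19 CPM on chow (SD, n = 8, 8 and 5), and Timp1, which blocks matrix proteases, was higher by 7.18 (adjusted p = 1.75e-06) and 6.25 (adjusted p = 3.56e-06). Of 12 general stellate markers, 9 were higher and 1 lower at 8 weeks (median 1.11) and 7 higher and 1 lower at 16 weeks (median 0.98). Without 8-week replicate 3 the counts were 8 and 1, and 8 and 2. The gene lower at 8 weeks was Cxcl12 (-0.89, adjusted p = 0.00712), chosen here after its values were seen. At 16 against 8 weeks 3 were higher and 2 lower (median -0.01), or 4 and 1 without that library. Adamtsl2 was at 1.18 (adjusted p = 0.000213) and Pth1r at -1.24 (adjusted p = 0.0363) with all libraries. Adamtsl2, a matrix protein that binds latent TGF-beta binding protein, averaged 42.9 ± 14.2 CPM after 8 weeks and 97.4 ± 15.7 CPM after 16 weeks, against 11.8 ± 2.02 CPM on chow, and Pdgfrb, the receptor of platelet-derived growth factor, 39.6 ± 9.49 and 70.6 ± 10.8 CPM, against 13.8 ± 1.66 CPM. Without 8-week replicate 3 the medians at 8 weeks were 2.97 for the activated list, 0.61 for the general markers and 0.12 for the 10 genes. The median of all genes was then 0.07.

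**Figure D5:**
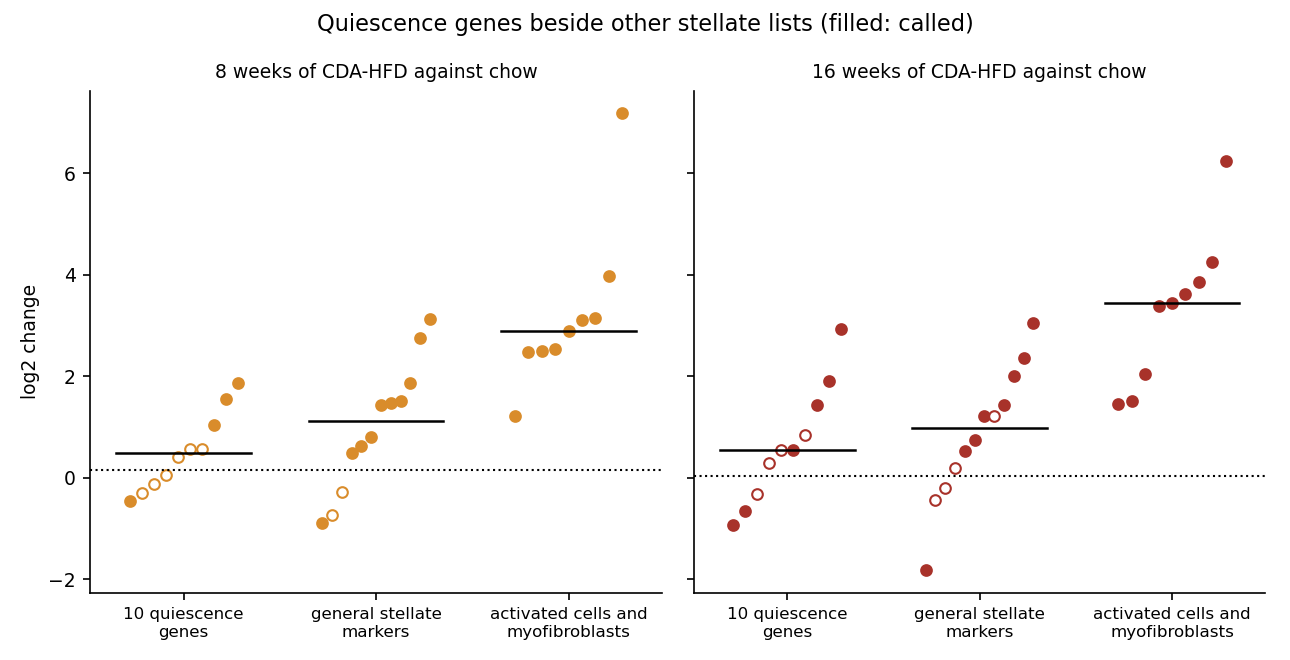
Log2 change of each gene at 8 and 16 weeks of CDA-HFD against chow for the 10 quiescence genes, 12 general stellate markers and 9 genes of activated cells (filled points were called; black bars are list medians, the dotted line is the median of all genes). The medians are 0.49, 1.11 and 2.89 at 8 weeks and 0.55, 0.98 and 3.45 at 16 weeks.

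Markers of other cells that the whole liver holds moved in the same comparisons. Of 9 portal fibroblast and mesothelium markers, 5 were higher and 0 lower at 8 weeks and 7 higher and 0 lower at 16 weeks against chow (6 and 8 higher without 8-week replicate 3). The 9 summed to 36.1 to 128 CPM after 8 weeks and 98.8 to 174 CPM after 16 weeks, against 14.2 to 31.6 CPM on chow. Eln, elastin, rose by 2.38 at 8 weeks (adjusted p = 5.00e-07) and 3.61 at 16 weeks (adjusted p = 2.62e-09). Of 5 lymphatic endothelium markers tested, 1 was higher and 2 lower at 8 weeks (2 and 2 without 8-week replicate 3) and 1 higher and 1 lower at 16 weeks. Pdpn, podoplanin, rose by 1.44 (adjusted p = 0.000206) and 2.52 (adjusted p = 2.13e-07) and Prox1, which hepatocytes also express, fell by 1.499 (adjusted p = 0.000411) and 1.27 (adjusted p = 0.00132), while Ccl21a had 0 counts in each library. Of 6 sinusoidal endothelium markers, 2 were higher and 0 lower at 8 weeks (4 and 1 without 8-week replicate 3) and 1 higher and 2 lower at 16 weeks, and their sum was 346 to 662 CPM after 8 weeks and 253 to 420 CPM after 16 weeks, against 326 to 381 CPM on chow. The 6 hepatocyte markers, of which 1 was higher and 3 lower at 8 weeks (0 and 3 without 8-week replicate 3) and 0 higher and 4 lower at 16 weeks, summed to 94756 to 338626 CPM after 8 weeks and 71062 to 102022 CPM after 16 weeks, against 108545 to 163722 CPM on chow. With total counts alone, the lymphatic markers at 16 weeks were 3 higher and 0 lower, the sinusoidal markers 2 higher and 1 lower, and the hepatocyte markers at 8 weeks 2 higher and 3 lower. Without 8-week replicate 3, the highest 8-week sums were 79.4 CPM for portal fibroblast and mesothelium markers, 503 CPM for sinusoidal markers and 189672 CPM for hepatocyte markers. The 8-week sums of the portal fibroblast and mesothelium markers then lay below each 16-week sum. The part of these cells in the changes of the 10 genes was not tested.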

How the data were processed

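RNA was measured in 21 mouse livers; per the labels, RNeasy columns gave total RNA, from which TruSeq stranded libraries were made. What the authors deposited are raw counts for 52636 Ensembl IDs, with no scaling. GRCm38 is the build that the submitters' processing notes name. No aligner, counter or annotation is named in the sources used here. The tables per sample and for the series were identical in 21 of 21 samples. GENCODE M21 gave symbols, coordinates and merged exon lengths (52489 IDs matched), and RefSeq (GRCm38.p6) gave promoters.

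filterByExpr by group kept 17104 of 30505 genes with a count (99.961% of counts). With R 4.3.3 and edgeR 4.0.16, TMM factors and 1 quasi-likelihood fit of 21 libraries gave 3 contrasts, with Benjamini-Hochberg adjustment over all genes tested; a gene was called at adjusted p under 0.05. Intervals are 95% from the same fit. CPM used TMM-scaled totals. Alternatives were DESeq2 1.42.0 (size factors, Wald test), total counts, other filters, 2-group fits, the 20 most abundant genes left out, and libraries left out; list counts under other scalings, and list genes, list counts and the order per exon length without 8-week replicate 3, were added after the values were seen. The fit was tested on simulated counts. Replicate numbers follow listing order. The 10 genes, the lists and the tests were chosen with earlier results of these data known. Beside the 10 genes, the text names the 2 called genes of each list with the largest absolute change in a comparison. For each of the 10 it also names the 2 genes with the highest Spearman's rho over 21 libraries (log2 CPM with a prior count of 2, minus the group mean). Met, Hgfac, Hpn, Lrat, Sox10, Ccl21a and Cxcl12 are named beside these, chosen after their values were seen. Some genes that the rule would name are not reported here.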

Additional observations from a re-analysis of the deposited data

Results flagged for a closer look

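Single livers stood far from the rest of their group in 5 of 30 sets of a gene and a group checked by Dixon's test, where chance flags about 1 in 20. In 8-week replicate 3, Ecm1 was at 714 CPM, Angptl6 at 44.99 CPM and Hand2 at 19.1 CPM, each the highest of the 8-week livers in TMM-scaled CPM. The TMM factor of this library was 0.496, against 0.884 to 1.17 in the rest of its group, and a low factor raises every CPM. For Hand2 it held 275 of 29037525 counts and 8-week replicate 2 held 413 of 37005117, so that its share of raw counts was not the highest. Replicate 3 also held 1486 CPM of squamous epithelium and 2159 CPM of skeletal muscle transcripts, and their part in these levels was not tested. In chow replicate 5, Reln was at 61.6 CPM and Gfap at 0.548 CPM, each the highest on chow, and the Gfap value rests on 20 counts. Skeletal muscle genes summed to 299 CPM in that library, and to at most 10.2 CPM in the other chow livers, and their part was not tested.

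The 16-week and 8-week diet groups differed for 5 of the 10 genes (edgeR quasi-likelihood test, adjusted over all genes), where 21.6% of all genes were called. Without chow livers at 16 weeks, length of feeding and age cannot be told apart in this difference. The log2 difference was 1.06 for Cygb (adjusted p = 0.000746), 0.95 for Hgf (adjusted p = 0.0370), 0.86 for Rgs5 (adjusted p = 0.00815), -0.88 for Ecm1 (adjusted p = 0.0343) and -1.499 for Angptl6 (adjusted p = 0.00120). Without 8-week replicate 3 it was -0.34 for Ecm1 and -1.06 for Angptl6, both still called. The Ecm1 call was lost in 8 and the Hgf call in 11 of 30 alternative fits, while those of Cygb, Rgs5 and Angptl6 held in all 30.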

How the results depend on the processing

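Over 10 genes, 3 comparisons and the alternatives, 35 log2 changes gained a call, 22 lost one and 11 reversed, none of these 11 called in either fit, and the others kept direction and side of the threshold. The cause was not tested. Gfap had 29 alternatives in each comparison and the other genes 30. The filter at a mean of 1 CPM removed Gfap, so that its changes were not tested there. Total counts alone gave 5 genes higher and 0 lower at 8 weeks, 7 higher and 0 lower at 16 weeks against chow and 1 lower between the diet groups, and reversed Hgf at 8 weeks (0.12), Ecm1 at 16 weeks (0.21) and Vipr1 between the diet groups (0.16). Between the diet groups, Hgf and Ecm1 lost their calls with no filter, where 30505 genes were tested, and in the fit without 8-week replicates 3, 4 and 5. The 2-group fit gave 3 of the 10 genes called, beside 2226 of all genes (3703 in the fit of all groups). Without the 5 libraries with squamous transcripts (8-week replicates 3 and 6, 16-week replicates 1, 4 and 7) 5579 of all genes were called. At 8 weeks against chow, Ecm1 was -0.0353 by DESeq2 and -0.0279 without 8-week replicates 3, 4 and 5, where Hgf was 0.21 and Angptl6 -0.0122. Reln was -0.0241 in the 2-group fit, and 0.117 to -0.0429 with 1 library left out, below 0 without 8-week replicate 6 (-0.0279) or 8. Hgf lay between -0.369 and 0.00299 there, above 0 without 8-week replicate 3. Leaving out each library gave 4 to 5 genes called at 8 weeks, 6 to 9 at 16 weeks and 3 to 6 between the diet groups, of which 1 to 2 lower. Of all genes it gave 7563 to 9748, 8099 to 11308 and 2248 to 5132. The fewest of the 10 came without 16-week replicate 5, 6 or 8.

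No paired analysis was possible because replicate numbers only follow the listing order. Gfap, with 4 to 77 counts in a library, is the gene whose precision depth limits most.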
